A study of Ovis aries with 54 samples.

Results

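Basement membranes are thin sheets of matrix under epithelia and around capillaries, smooth muscle and fat. In the lung alveolus the sheets of epithelium and capillary meet in a shared layer through which gas diffuses. A network of type IV collagen gives the sheet its tensile strength, a network of laminin trimers binds it to cells, and nidogen and perlecan join both networks. The set described here was given by name and holds 10 genes: the type IV collagen chains COL4A1, COL4A2, COL4A3 and COL4A4, the laminin chains LAMA3, LAMA5, LAMB2 and LAMC1, nidogen 1 (NID1) and perlecan (HSPG2). Of these, 9 were found by symbol among the 30184 genes of the count table. LAMB2 was not analysed here.

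Lung tissue of sheep (Ovis aries) was sequenced as 54 libraries, 3 from each of 18 tissue pieces, and the counts of the 3 libraries of a piece were summed. By the treatment label, 7 pieces had received porcine elastase together with lipopolysaccharide (PE/LPS), 7 had received saline, and 4 were controls, for which the label gives no agent. Elastase cuts elastin and lipopolysaccharide is a component of bacterial cell walls, so the model combines matrix damage with an inflammatory stimulus. The PE/LPS and saline pieces came from lobes of the same 7 sheep (1, 2, 8, 11, 14, 15 and 16), so a saline piece is tissue of an exposed animal, and the controls were 4 other sheep (7, 9, 10 and 18). Each sheep gave 1 piece per treatment. The labels state no breed, age, dose or time. Titles carry a letter code of unstated meaning, LC or RA. All PE/LPS pieces were LC and all saline pieces RA, so treatment and code cannot be told apart in exposed sheep. Control sheep 10 and 18 were LC and control sheep 7 and 9 were RA. The pieces are bulk tissue, in which fewer cells of a type and less RNA per cell cannot be told apart.

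Piece totals ran from 9653262 to 41946705 counts. Of 48 marker genes of lung cell types, 47 were in the table, and all 47 had counts in every piece, alveolar type 1, alveolar type 2 and endothelial markers included. The 9 measured genes all passed the low-count filter. Counts per piece ran from 65 to 948 for HSPG2, the least counted, and from 1682 to 29055 for COL4A1, the most counted. Levels are in CPM, a gene's counts relative to the library total with TMM scaling. Priming from the poly-A tail and counting by gene do not allow levels of different genes to be ranked per length, so levels are compared between pieces, and between genes only as a ratio that is followed from piece to piece.

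No member passed an adjusted p of 0.05 in any comparison between groups. In the edgeR quasi-likelihood test of PE/LPS against saline with sheep as a block, 0 of 16944 genes (0%) were called, and so 0 of the 9 members. Without adjustment 976 genes (5.76%) had an edgeR p under 0.05, with 0 of the 9 members among them. At an adjusted p under 0.05 DESeq2 called 47 genes and limma voom 0, again with 0 members. The PE/LPS pieces lay wholly below the saline pieces for 0 of the 9 members (0.0313% of 19162 genes) and wholly above them for 0 (0.0104%). The fitted log2 fold change was negative for 6 members and positive for 3, with a median of -0.25, beside a median of -0.03 and 52.8% negative over all genes tested.

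COL4A1 and COL4A2 encode the chains of the type IV collagen protomer found in nearly all basement membranes. COL4A1 ran from 174 CPM (sheep 8) over a median of 322 to 611 CPM (sheep 16) in the PE/LPS pieces. In the saline pieces it ran from 228 CPM (sheep 16) over a median of 484 to 1837 CPM (sheep 14), and the control pieces of sheep 7, 9, 10 and 18 stood at 588, 234, 344 and 472 CPM. The groups overlapped, and the 1837 CPM of the saline piece of sheep 14 lay far above the next saline value of 795 CPM. PE/LPS was lower than saline in 6 of 7 sheep, with means of 324 ± 143 against 660 ± 551 CPM (SD, n = 7 each). The fitted log2 fold change was -0.83 (SE 0.40, 95% interval -1.70 to 0.04, edgeR adjusted p = 0.771). Without sheep 16 it was -1.17 (edgeR adjusted p = 0.181) and without sheep 14 it was -0.57. The saline mean without sheep 14 was 463 CPM.

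COL4A2, like COL4A1, had a lower median in PE/LPS than in saline pieces. It ran from 27.3 CPM (sheep 2) over a median of 59.1 to 183 CPM (sheep 16) in PE/LPS pieces and from 51.4 CPM (sheep 16) over a median of 94.9 to 329 CPM (sheep 14) in saline pieces. The control pieces stood at 122 (sheep 7), 42.8 (sheep 9), 73.0 (sheep 10) and 119 CPM (sheep 18). The lowest and highest saline pieces were those of the same sheep as for COL4A1, and PE/LPS was again lower in 6 of 7 sheep. The fitted difference was -0.81 (SE 0.39, 95% interval -1.66 to 0.03, edgeR adjusted p = 0.771), and -1.18 without sheep 16 (edgeR adjusted p = 0.177). Without sheep 14 it was -0.61, and the saline mean was 93.2 CPM instead of 127 CPM.

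COL4A3 and COL4A4 encode chains that join with that of COL4A5 in a second network, known from the kidney glomerulus and the alveolus, and the COL4A3 chain carries the antigen of Goodpasture syndrome. COL4A3 ran from 32.8 over a median of 42.6 to 53.5 CPM in PE/LPS pieces and from 26 over 39.8 to 69.0 CPM in saline pieces. Control pieces stood at 70.8 CPM in sheep 7 and at 27.2, 27.9 and 31.3 CPM in sheep 9, 10 and 18. The groups overlapped, PE/LPS was higher in 4 of 7 sheep, and the fitted difference was 0.11 (SE 0.23, 95% interval -0.39 to 0.61, edgeR adjusted p = 0.919). The control mean was 39.3 ± 21.1 CPM (SD, n = 4), and 28.8 CPM without sheep 7.

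COL4A4 ran from 42.2 over a median of 73.6 to 113 CPM in PE/LPS pieces and from 60.5 over 80.6 to 177 CPM in saline pieces, and stood at 130.1, 35.2, 63.5 and 79.1 CPM in control sheep 7, 9, 10 and 18. PE/LPS was lower in 6 of 7 sheep, with a fitted difference of -0.43 (SE 0.26, 95% interval -0.98 to 0.13, edgeR adjusted p = 0.775). The saline piece of sheep 14 was the highest for COL4A4, as for COL4A1 and COL4A2, but stood at 35.5 CPM for COL4A3, below the saline median.

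**Figure D1:**
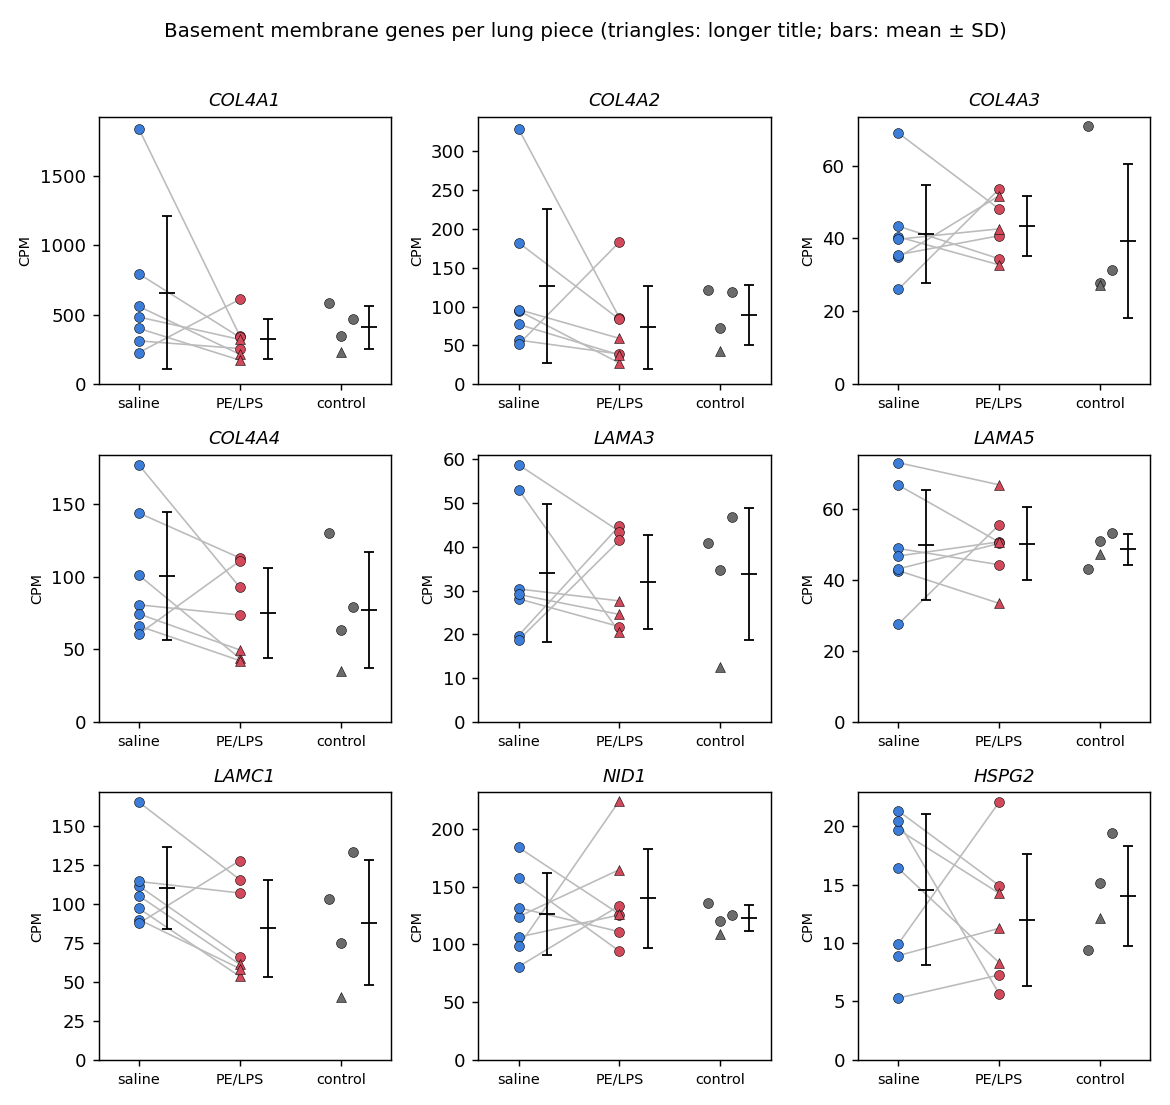
Level of each measured gene (y axis, CPM from 0) in the saline, PE/LPS and control pieces (x axis). Points are pieces, grey lines join pieces of the same sheep, triangles mark the 4 pieces with further characters in their title, and bars are the mean ± SD of 7, 7 and 4 pieces. The groups overlap in all 9 panels, and the saline piece of sheep 14 stands highest for COL4A1 at 1837 CPM.

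Laminins are trimers of an alpha, a beta and a gamma chain, and none of the 3 chains measured here passed the test. LAMC1, the gamma chain of most laminin trimers, ran from 53.4 over a median of 66.2 to 128 CPM in PE/LPS pieces and from 87.4 over 105 to 165 CPM in saline pieces. It was lower in PE/LPS in 6 of 7 sheep, with sheep 16 as the exception, and the fitted difference was -0.44 (SE 0.23, 95% interval -0.93 to 0.05, edgeR adjusted p = 0.771). Control pieces of sheep 7, 10 and 18 stood at 103, 74.9 and 133 CPM and that of sheep 9 was lowest of the 4, with a control mean of 87.9 ± 39.8 CPM (SD, n = 4).

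LAMA3 encodes an alpha chain of epithelial laminins that anchor hemidesmosomes. It ran from 20.5 over a median of 27.7 to 44.8 CPM in PE/LPS pieces and from 18.7 over 29.1 to 58.8 CPM in saline pieces, and stood at 41, 12.6, 34.7 and 46.9 CPM in control sheep 7, 9, 10 and 18. The fitted difference between PE/LPS and saline was -0.03 (SE 0.30, 95% interval -0.68 to 0.63, edgeR adjusted p = 0.987), with PE/LPS lower in 5 of 7 sheep. LAMA5, the alpha chain of alveolar and vascular laminins, ran from 33.4 over 50.7 to 66.8 CPM in PE/LPS pieces, from 27.5 over 46.8 to 73.0 CPM in saline pieces, and from 43.1 to 53.2 CPM in controls. Its difference was 0.05 (SE 0.22, 95% interval -0.42 to 0.52, edgeR adjusted p = 0.963).

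NID1, which bridges laminin and type IV collagen, ran from 94.1 over a median of 126 to 224 CPM in PE/LPS pieces, from 80.7 over 124 to 184 CPM in saline pieces and from 109 to 136 CPM in controls. It was higher in PE/LPS in 4 of 7 sheep (log2 fold change 0.15, SE 0.27, 95% interval -0.43 to 0.74, edgeR adjusted p = 0.904). HSPG2, a heparan sulfate proteoglycan that holds growth factors in the sheet, ran from 5.66 over a median of 11.3 to 22 CPM in PE/LPS pieces, from 5.29 over 16.4 to 21.3 CPM in saline pieces and from 9.38 to 19.4 CPM in controls. Its difference was -0.25 (SE 0.34, 95% interval -0.99 to 0.48, edgeR adjusted p = 0.870).

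The spread among libraries of a piece was set beside the spread among pieces, taken over the means of their libraries. What the former measures is not known, since nothing says whether the libraries came from separate RNA. On the log2 CPM scale the SD among libraries of a piece was 0.11 for COL4A1 and 0.12 for NID1, and the SD among pieces of a group was 0.77 and 0.38. The corresponding values were 0.25 and 0.34 for LAMA5, 0.29 and 0.45 for COL4A3, and 0.45 and 0.70 for HSPG2. A larger share of the scatter of these genes thus lay between libraries of a piece. The library of 115109 counts from the PE/LPS piece of sheep 11 was left out of these SDs.

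Member counts by direction were taken within each sheep. In sheep 15 all 9 members were lower in PE/LPS than in saline tissue, with log2 differences from -1.84 (HSPG2) to -0.35 (COL4A4). In sheep 16 all 9 were higher, from 0.22 (LAMA5) to 1.83 (COL4A2). Sheep 2 had 8 members lower, sheep 1 and 11 had 7 each, and sheep 8 and 14 had 6 each. Over all 19162 genes the share lower was 46.8% in sheep 16 and 47.9% to 52.9% in the other 6 sheep. How far the counts of members depart from these shares was not tested in any sheep. Members of a sheep share the same pieces, so these counts are no independent evidence.

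**Figure D2:**
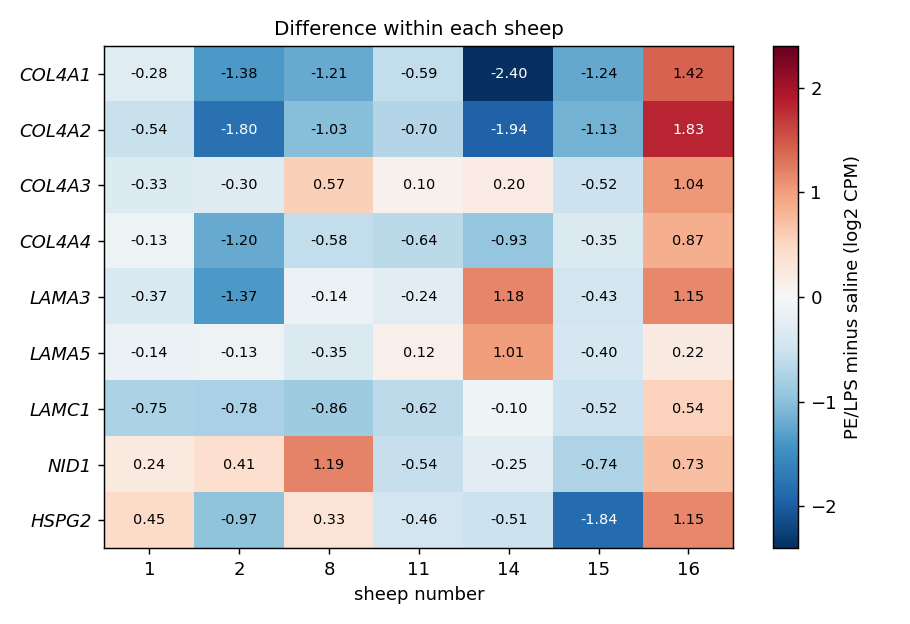
Difference in log2 CPM between the PE/LPS and the saline piece of each sheep (columns, by sheep number) for the 9 genes (rows), with blue for lower and red for higher in PE/LPS. Sheep 16 is red for all 9 genes and sheep 15 blue for all 9, and the lowest value is -2.4 for COL4A1 in sheep 14.

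Sheep 14 had the widest spread, from -2.4 for COL4A1 and -1.94 for COL4A2 to 1.01 for LAMA5 and 1.18 for LAMA3. Its saline piece held the highest saline level of COL4A1, COL4A2, COL4A4 and HSPG2 and the lowest of LAMA5, 27.5 CPM. The ratio of COL4A1 to LAMC1 was 16.1 in that piece and 2.61 to 5.38 in the other 6 saline pieces. In the same piece the summed level of 6 fibroblast markers was 5610 CPM, against 1470 to 3411 CPM in the other saline pieces. Of that sum COL1A1 gave 1965, COL3A1 1753 and COL1A2 1186 CPM, each the highest of all pieces, while DCN was at 376 CPM, its lowest, and PDGFRA at 73.2 CPM, within the range of the others. The 5 basal and airway markers summed to 1257 CPM, the highest of the 18 pieces, and the 6 immune markers to 756 CPM, the lowest. The 6 alveolar type 1 markers summed to 838 CPM against 2042 to 4170 CPM, and the 6 endothelial markers to 636 CPM against 838 to 1260 CPM. The part of these cell markers in the collagen levels was not tested.

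The pieces of 4 sheep carry further characters after the code in their title: the PE/LPS pieces of sheep 2, 8 and 11 and the control piece of sheep 9. COL4A4 ran from 35.2 to 49.6 CPM in these 4 and from 60.5 to 177 CPM in the other 14. LAMC1 ran from 40.1 to 61.2 CPM in the 4 and from 66.2 to 165 CPM in the 14. No piece of either class overlapped with the other for these 2 of the 9 genes, chosen after their values were seen, while 3.93% of 19162 genes lay lower in the same way. None of the 9 lay higher without overlap, as 2.18% of genes did. Among PE/LPS pieces alone the same 2 genes lay lower without overlap in the 3 longer-titled pieces, as did 15.0% of genes, and 0 of the 9 lay higher, as 10.2% of genes did. The ratio of COL4A4 to COL4A3 was 0.96 to 1.34 in the 4 pieces and 1.66 to 4.97 in the 14.

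Their totals were 9653262 to 23106036 counts, against 12760040 to 41946705 in the other 14, and mitochondrial genes took 0.63% to 1.03% against 0.81% to 1.68% of the scaled counts. The part of title, depth and mitochondrial share in these levels was not tested. Without sheep 2, 8 and 11 the PE/LPS minus saline difference was -0.15 for COL4A4 and -0.22 for LAMC1, beside -0.65 for COL4A1 and -0.52 for COL4A2 (edgeR adjusted p = 0.99996 for each).

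**Figure D3:**
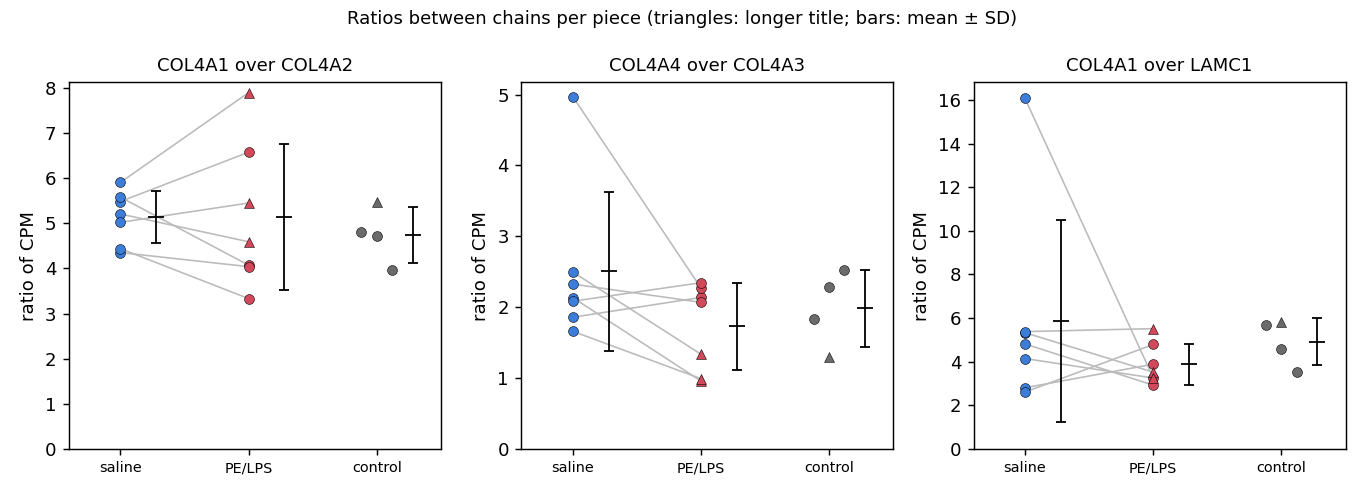
Ratio of CPM between chains in each piece (y axes from 0), by group (x axis), with lines joining pieces of the same sheep, triangles for longer titles, and bars for the mean ± SD. The 4 triangles lie lowest for COL4A4 over COL4A3, at 0.96 to 1.34, and the saline piece of sheep 14 stands at 16.1 for COL4A1 over LAMC1.

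COL4A1 and COL4A2 lie side by side in the ARS-UI_Ramb_v3.0 gene table, as do COL4A3 and COL4A4, and in human and mouse each of these pairs is transcribed away from a shared promoter. How far members varied together was measured over 9 sheep within each code, 72 relations in all, as Pearson's r of log2 CPM with exact permutation p adjusted over the 72. COL4A1 and COL4A2 had r = 0.99 among RA pieces (rho 0.97, adjusted exact permutation p = 0.000794 for r and 0.00595 for rho) and r = 0.95 among LC pieces (rho 0.97, adjusted exact permutation p = 0.00625 and 0.00595). Without the 2 pieces farthest from the COL4A1 median r was 0.99 and 0.97, and without the longer-titled pieces it was 0.99 over 8 RA sheep and 0.97 over 6 LC sheep. The ratio of COL4A1 to COL4A2 stayed between 3.33 and 7.90 over the 18 pieces, while COL4A1 ran from 174 to 1837 CPM. The summed level of COL4A3 and COL4A4 per 100 CPM of COL4A1 and COL4A2 was 32.5 ± 9.45 in PE/LPS, 22.7 ± 7.90 in saline (SD, n = 7 each) and 22.8 ± 4.0 in control pieces (n = 4). It was higher in PE/LPS than in saline in 6 of 7 sheep, with sheep 16 as the exception, and ranged from 20.7 to 47.9 against 9.80 to 33.6, a description given without a test.

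For COL4A3 and COL4A4 the relation did not pass the threshold. Their r was 0.67 among RA pieces (rho 0.67, adjusted exact permutation p = 0.195 for r and 0.193 for rho) and 0.28 among LC pieces (rho 0.28, adjusted exact permutation p = 0.626 and 0.680). Without the longer-titled pieces r was 0.96 over 6 LC sheep and 0.57 over 8 RA sheep, and without the saline piece of sheep 14 it was 0.89 among RA pieces. The longer titles and this saline piece, which had the highest ratio of COL4A4 to COL4A3 (4.97), were singled out after values were seen. Without the 2 pieces farthest from the COL4A3 median r was 0.53 and 0.05.

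COL4A4 varied with the other pair among RA pieces, with r = 0.88 to COL4A1 and 0.90 to COL4A2 (rho 0.92 and 0.88, adjusted exact permutation p = 0.0279 and 0.0269 for r, 0.0236 and 0.0316 for rho). Among LC pieces these did not pass (r = 0.67 and 0.74, rho 0.65 and 0.75, adjusted exact permutation p = 0.195 and 0.119 for r, 0.208 and 0.122 for rho). Without the 2 pieces farthest from the median the RA values were 0.89 and 0.83. The difference between these correlations was not tested.

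COL4A4 and LAMC1 passed in both codes for r (0.84 in RA and 0.87 in LC, rho 0.92 and 0.82, adjusted exact permutation p = 0.0279 and 0.0408 for r, 0.0236 and 0.0862 for rho). Without the longer-titled pieces their r was 0.70 in both codes, and without the 2 farthest pieces 0.79 in RA and 0.84 in LC. The other relations that passed for r were in LC pieces, at 0.84 to 0.89. LAMC1 with COL4A1 and with COL4A2 also passed for rho (0.88 each, adjusted exact permutation p = 0.0316 each). LAMC1 with LAMA3 (rho 0.78, adjusted exact permutation p = 0.122) and LAMA3 with COL4A2 (rho 0.85, adjusted exact permutation p = 0.0547) did not. Among RA pieces the r of these relations was 0.59, 0.65, 0.77 and 0.39 in the same order, and none passed. Among all 9848 ranked genes, centred on group means over the 18 pieces, LAMC1 stood at rank 178 and COL4A2 at rank 163 in likeness to COL4A4, and COL4A4 at rank 90 to COL4A1, so many other genes lay as close. Of the 72 relations 61 were positive, and 10 passed for r and 7 for rho. The 9 pieces of a code hold 7 exposed and 2 control sheep.

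**Figure D4:**
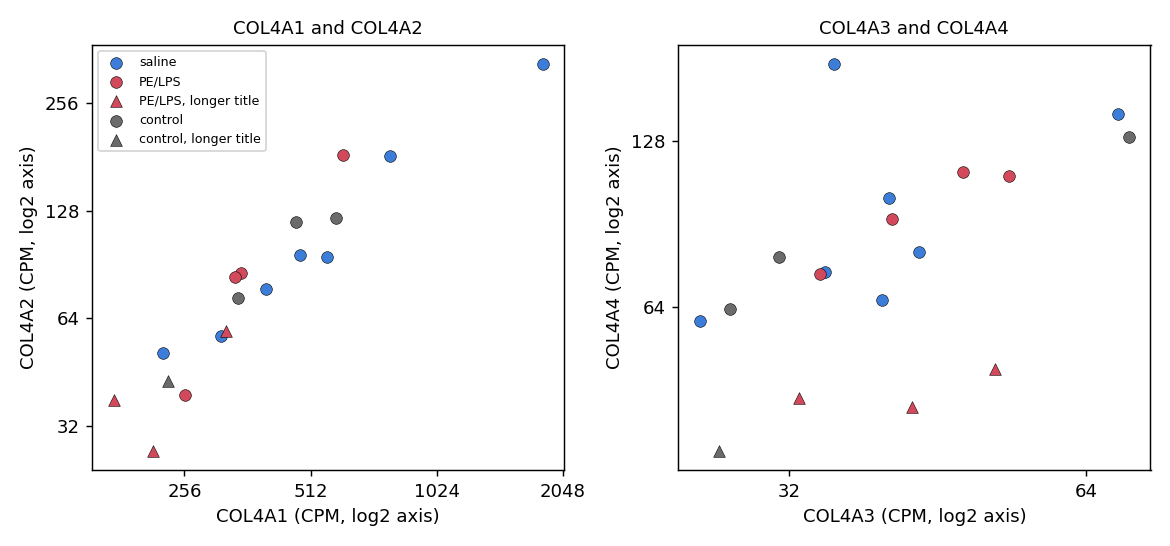
Levels of neighbouring chain genes in the 18 pieces, both axes in CPM on a log2 scale, coloured by group, with triangles for longer titles. The points of COL4A1 and COL4A2 lie along a line, while for COL4A3 and COL4A4 the 4 triangles and the saline piece of sheep 14, at 35.5 and 177 CPM, lie off the others.

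Against all 9848 other genes with a mean of at least 10 CPM, after subtracting group means, COL4A2 was the gene most like COL4A1 over the 18 pieces (r = 0.94). In the order of COL4A2, COL4A1 came at rank 5, after 4 genes led by CHD4 (r = 0.97). In the order of COL4A1 the next 3 were FNIP2, CHD4 and UBR4 (r = 0.93, 0.93 and 0.92). Those most like COL4A3 were BCL2, LOC101110107, PDGFRA, TPM1 and SRFBP1 (r = 0.83, 0.82, 0.81, 0.77 and 0.76), and COL4A4 came at rank 221. Among members LAMA5 stood farthest from COL4A1, at rank 5953. These correlations are descriptions over pieces that share animals and scaling.

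The comparison of PE/LPS tissue with control sheep called 0 of 18340 genes with edgeR (0%, with 234 or 1.28% at an unadjusted p under 0.05) and 0 with DESeq2 or limma voom, and 0 members on either count. Of 19162 genes 0.11% lay wholly below and 0.0992% wholly above the controls, with 0 members among them. COL4A1 had a log2 fold change of -0.34 (SE 0.35, 95% interval -1.08 to 0.41) and COL4A2 of -0.27 (SE 0.45), and the other 7 lay between -0.23 (HSPG2) and 0.20 (NID1). Every one had an edgeR adjusted p of 0.99993. Against the LC control pieces alone COL4A3 stood at 0.55, HSPG2 at -0.53 and LAMC1 at -0.31.

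Saline tissue of exposed sheep was compared with the same control pieces, so the comparisons share samples. edgeR called 0 of 18289 genes (0%, with 898 or 4.91% at an unadjusted p under 0.05, 0 members among them), DESeq2 6 and limma voom 0. Wholly below the controls lay 0.214% of genes and wholly above them 0.193%, with 0 members among these. COL4A1 had a log2 fold change of 0.68 (SE 0.49, 95% interval -0.35 to 1.71, edgeR adjusted p = 0.939), and 0.16 without sheep 14. COL4A2 stood at 0.50 (SE 0.46), and 0.049 without sheep 14. COL4A4 stood at 0.37 (SE 0.35) and LAMC1 at 0.31 (SE 0.28). The other 5 lay between -0.01 (LAMA3) and 0.06 (COL4A3), each below its SE. Against the RA control pieces alone COL4A1 stood at 0.67, COL4A2 at 0.61, LAMC1 at 0.60 and COL4A3 at -0.26.

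**Figure D5:**
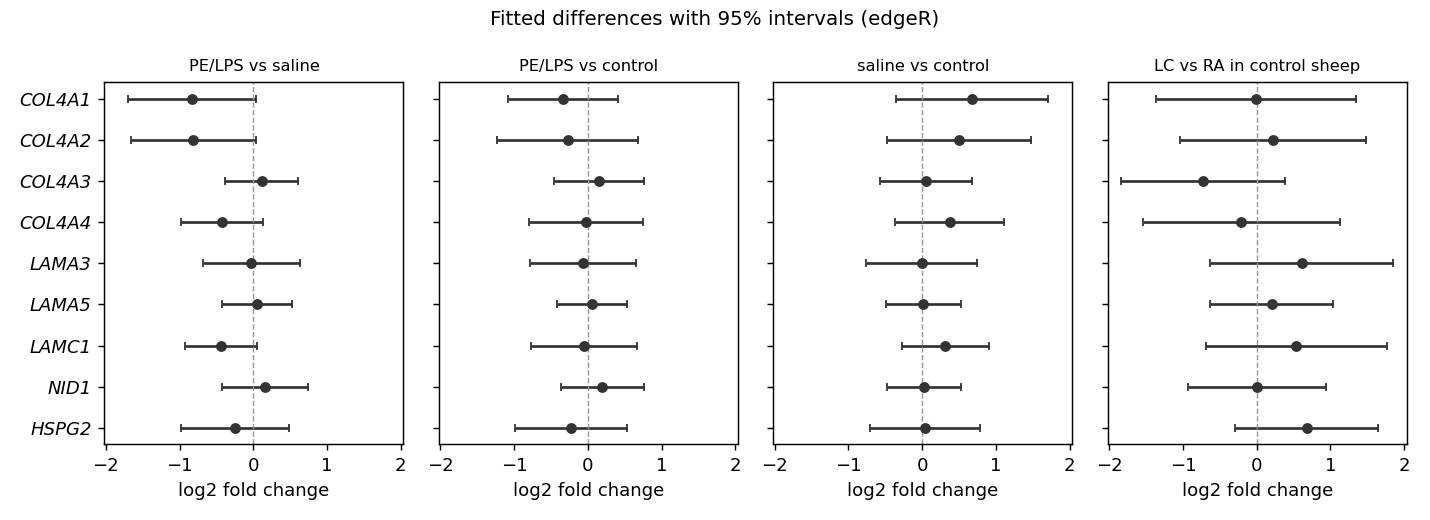
Fitted log2 fold change (x axis) of the 9 genes (rows) in the 4 comparisons, with 95% intervals from edgeR. All 36 intervals include 0, and the intervals of COL4A1 and COL4A2 in PE/LPS against saline reach 0.04 and 0.03.

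Whether the codes differ without exposure was looked at in the 4 control pieces. Of 18063 genes edgeR called 0 (0%, with 670 or 3.71% at an unadjusted p under 0.05, 0 members among them), DESeq2 55 and limma voom 1. HSPG2 stood at 15.2 and 19.4 CPM in LC and at 9.38 and 12.2 CPM in RA pieces (log2 fold change 0.68, SE 0.42, edgeR adjusted p = 0.987). LAMA5 also lay higher in both LC pieces (51 and 53.2 against 43.1 and 47.2 CPM), as did 16.5% of genes, while 0 of the 9 lay lower in both, as 15.0% of genes did. The fitted difference was -0.72 for COL4A3 and -0.21 for COL4A4. It was 0.61 for LAMA3, 0.54 for LAMC1, 0.22 for COL4A2, 0.20 for LAMA5 and 0.0056 for NID1. COL4A1 had a difference of -0.0078 (SE 0.59, 95% interval -1.37 to 1.35). The PE/LPS minus saline difference less the LC minus RA difference in controls was -1.08 for LAMC1 (SE 0.56, 95% interval -2.24 to 0.08, limma voom adjusted p = 0.729) and -1.0 for COL4A1 (SE 0.81, 95% interval -2.69 to 0.68, limma voom adjusted p = 0.755). For COL4A2 this difference of differences was -1.12 (SE 0.91), for HSPG2 -0.88, for LAMA3 -0.77, for COL4A4 -0.50 and for LAMA5 -0.18. It was positive for COL4A3 (0.70, SE 0.49) and NID1 (0.13). The test called 0 of 20719 genes (0%, with 1264 or 6.1% at an unadjusted p under 0.05, 0 members among them).

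The other basement membrane genes held 57 in the table, of which 54 were tested for PE/LPS against saline. None passed with edgeR. At an unadjusted p under 0.05, 3 were lower and 0 higher, beside 3.25% of all genes lower and 2.51% higher. The 3 were SPARC, a matricellular protein that binds type IV collagen (327 ± 74.3 against 516 ± 158 CPM, SD, n = 7 each, log2 fold change -0.62, SE 0.26, lower in 6 of 7 sheep), the chain gene COL4A5 (21.5 ± 7.78 against 32.1 ± 9.02 CPM, -0.60, SE 0.25, lower in 6 of 7 sheep) and LOXL2, a lysyl oxidase that cross-links type IV collagen (8.16 ± 4.27 against 12.4 ± 5.41 CPM, -0.67, SE 0.29, lower in 5 of 7 sheep), with edgeR adjusted p = 0.771 for all 3.

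Over all 6 type IV collagen chains, COL4A6 included, 5 had a negative log2 fold change with a median of -0.62. The 8 laminin chains tested had 6 negative and a median of -0.20. Of 17 linker and proteoglycan genes 8 were negative (median 0.01), of 17 receptor genes 8 were negative (median 0.02), and of 15 assembly and cross-linking genes 9 were negative (median -0.24). The summed fibroblast markers ran from 1353 to 2312 CPM in PE/LPS and from 1470 to 5610 CPM in saline pieces, and the summed endothelial markers from 1001 to 1334 and from 636 to 1260 CPM. No marker passed the adjusted test. The log2 fold change was negative for 6 of 6 alveolar type 2 markers (median -0.67), 6 of 6 ciliated markers (-0.61) and 5 of 5 basal and airway markers (-0.88), and positive for 5 of 6 alveolar type 1 markers (0.28). It was negative for 4 of 6 fibroblast markers (-0.33) and positive for 4 of 6 endothelial (0.22), smooth muscle (0.08) and immune markers (0.25). The part of these cell markers in the chain levels was not tested.

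In PE/LPS against control tissue the smallest p among the other basement membrane genes were those of FREM1, an extracellular protein of epithelial basement membranes (4.01 ± 2.09 CPM, SD, n = 7, against 1.23 ± 0.585 CPM, n = 4, log2 fold change 1.72, SE 0.54), the collagen prolyl hydroxylase P3H1 (22.7 ± 5.19 against 32.9 ± 2.86 CPM, -0.53, SE 0.23) and the collagen receptor DDR1 (0.54, SE 0.33), with edgeR adjusted p = 0.99993 for all 3. In saline against control tissue they were COL4A5 (32.1 ± 9.02 against 19.6 ± 6.17 CPM, 0.70, SE 0.27), FREM1 (1.36, SE 0.62) and COL15A1 (0.54, SE 0.29), with edgeR adjusted p = 0.939 for all 3. Between LC and RA control pieces they were EGFL7 (0.91, SE 0.38) and LOXL2 (1.06, SE 0.48), and LAMA1, which had 0 counts in both LC pieces and a mean of 0.635 CPM in RA pieces (edgeR adjusted p = 0.987 for each). LAMA1 passed the low-count filter there only through its RA pieces, so its place among the smallest p was partly set by the filter. In both PE/LPS comparisons it was not tested.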

How the data were processed

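Libraries were made from total RNA with the index added at poly-A priming and an adapter added by tagmentation, per the labels. The authors deposited whole-number counts per gene and library, not normalized. STAR 2.7.10b, Trimmomatic 0.39, FastQC 0.11.9, edgeR 3.40.2, Subread 1.6.3 and featureCounts are named without roles in the submitters' processing notes. Build, strand setting and use of molecular identifiers were not given in the sources used here, and overlapping and antisense reads cannot be told apart. Of 30186 rows, 2 held no values and were left out. Gene names of 25441 (84.3%) matched a RefSeq table, whose start positions were used only to find neighbouring genes.

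Library totals were 2777537 to 16215732 counts, except 115109 in 1 library of sheep 11 (PE/LPS, library 1). Counts were summed per piece, and nothing says that libraries came from separate RNA. Tests used R 4.3.3, edgeR 4.0.16 (robust quasi-likelihood fits, TMM, filterByExpr with a minimum count of 10 and total of 15), limma 3.58.1 and DESeq2 1.42.0, with Benjamini-Hochberg adjustment at 0.05 over all genes. SE is the log2 fold change over the root of F. Log2 CPM uses a prior count of 2. Sheep was a block because the design text puts saline and PE/LPS lobes in the same sheep. Deviations of same-sheep pieces correlated from -0.41 to 0.50, above 0.1 in 4 of 7 pairs. Alternatives changed scaling, filter, tool, block, libraries and pieces.

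Members and gene lists were chosen with earlier results of these data known. Named are all members, the 3 other basement membrane genes with the smallest p in each comparison, and the 5 genes most like COL4A1 and COL4A3. Of these, 1 item is not reported here. Fits were tested on simulated counts. The unit of each test was the piece.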

Additional observations from a re-analysis of the deposited data

Results flagged for a closer look

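Single pieces stood far from their group, by a gap to the next piece that exceeded Dixon's 95% limit for the group's range. Of 39 groups checked, 8 were marked, where chance marks about 1 in 20 if groups are independent and their values normally distributed. Here values were unlogged CPM and the ratios reuse the same levels, so the 8 cannot be judged against that rate. In the saline group the piece of sheep 14 was marked for COL4A1 (1837 CPM, next 795), for the ratio of COL4A4 to COL4A3 (4.97, next 2.5) and for the ratio of COL4A1 to LAMC1 (16.1, next 5.38). The saline piece of sheep 15 was marked for COL4A3 (69.0 CPM, next 43.4) and LAMC1 (165 CPM, next 114).

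In the PE/LPS group the piece of sheep 16 was marked for COL4A1 (611 CPM, next 349) and COL4A2 (183 CPM, next 85.6). In the control group the piece of sheep 7 was marked for COL4A3 (70.8 CPM, next 31.3).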

How the results depend on the processing

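No member passed an adjusted p of 0.05 under any of the 639 combinations of member, comparison and alternative. The lowest adjusted p was 0.177, for COL4A2 in PE/LPS against saline without sheep 16. In that comparison COL4A1, COL4A2, COL4A4 and LAMC1 kept a negative sign under every alternative. The sign changed in 95 of the 639, in 83 of them to a value within 0.2 of 0. HSPG2 had the fewest counts, 65 in its lowest piece. None of these sign changes was past the threshold, and their cause was not tested.

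In PE/LPS against saline the fit with no replicate block and the one with no low-count filter called 1 gene each and DESeq2 47, and leaving out a sheep gave 0 to 1. In saline against control DESeq2 called 6. Between codes in controls DESeq2 called 55, no low-count filter 94 and limma voom 1, and leaving out a piece gave 2 to 33. The replicate block changed no member's call, nor that of the difference of differences, which called 0 genes with and without it.

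For PE/LPS minus saline, LAMA5 was at -0.042 with library totals, COL4A3 at -0.062 with library 1 alone, LAMA3 at 0.033 and LAMA5 at -0.00076 with library 2 alone, and LAMA3 at 0.37 and NID1 at -0.014 without sheep 2, 8 and 11. With library 1 alone, the PE/LPS piece of sheep 11 was its library of 115109 counts, with 2 for COL4A3. With a sheep left out COL4A3 ran from -0.041 to 0.22, HSPG2 from -0.49 to 0.0021, LAMA3 from -0.23 to 0.18, LAMA5 from -0.10 to 0.12 and NID1 from -0.021 to 0.30.

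For PE/LPS minus control, limma voom gave COL4A4 0.016 and LAMA3 0.025. Library 1 alone gave COL4A2 0.047, COL4A4 0.31, LAMA3 0.054 and LAMA5 -0.060, library 2 alone COL4A3 -0.11, LAMA5 -0.030 and LAMC1 0.024, and library 3 alone HSPG2 0.41. With library 1 alone, the PE/LPS piece of sheep 11 was its library of 115109 counts, with 24 for COL4A2 and 29 for COL4A4. LC controls alone gave COL4A4 0.073 and LAMA5 -0.053, and leaving out longer-titled pieces COL4A4 0.094 and NID1 -0.15. With a piece left out COL4A4 ran from -0.28 to 0.34, LAMA3 from -0.35 to 0.13, LAMA5 from -0.044 to 0.13 and LAMC1 from -0.30 to 0.21.

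For saline minus control, LAMA5 was at -0.00059 with DESeq2 size factors and -0.00044 with DESeq2, and LAMA3 at 0.079 with library totals. Limma voom gave LAMA3 0.0019, LAMA5 -0.032, NID1 -0.021 and HSPG2 -0.14. Library 1 alone gave LAMA3 0.22, LAMA5 -0.053, NID1 -0.061 and HSPG2 -0.29, and library 2 alone COL4A3 -0.20. RA controls alone gave COL4A3 -0.26 and LAMA3 0.33, and leaving out the longer-titled piece COL4A3 -0.074, NID1 -0.018 and HSPG2 -0.013. With a piece left out COL4A3 ran from -0.10 to 0.50, HSPG2 from -0.12 to 0.22, LAMA3 from -0.27 to 0.18, LAMA5 from -0.097 to 0.12 and NID1 from -0.10 to 0.11.

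For LC minus RA in controls, NID1 was at -0.026 with DESeq2 size factors and with DESeq2. COL4A1 was at 0.16 with library totals and with limma voom and at 0.0065 with no low-count filter, and COL4A4 at 0.089 with limma voom. With a piece left out, which leaves an arm of 1 piece assumed to vary like the other arm, COL4A1 ran from -0.52 to 0.76, COL4A2 from -0.34 to 1.12, COL4A3 from -1.25 to 0.081, COL4A4 from -0.86 to 0.98 and NID1 from -0.13 to 0.13.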
